A study of Mus musculus with 20 samples.

Results

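The genes described here are 34 genes of DNA replication and cell division, chosen by symbol and read in whole mouse lung under cigarette smoke and losartan. They split into 11 replication genes (Mcm2 to Mcm7, Pcna, Rrm1, Rrm2, Tyms and Tk1) and 23 mitosis genes (Mki67, Top2a, Ccna2, Ccnb1, Ccnb2, Cdk1, Birc5, Aurka, Aurkb, Bub1, Plk1, Cdc20, Cenpa, Cenpe, Cenpf, Kif11, Kif20a, Kif23, Tpx2, Ube2c, Nusap1, Prc1 and Stmn1), out of 16110 genes named by the array's annotation. Members were found through the annotation symbol of each probe. A probe was named for 30 of the 34 genes, with 51 probes in all. No named probe was found here for Mki67, Ccnb1, Aurkb and Cenpf.

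Male mice of the inbred AKR/J strain, 6 to 8 weeks old at the start, breathed room air (RA) or cigarette smoke (CS), with or without losartan. Losartan, a drug that blocks the type 1 receptor for angiotensin II, was given at 0.6 g/L by mouth (RA_Los and CS_Los). Smoke came from 2R4F reference cigarettes in daily sessions of 2 h, 5 days a week, with carbon monoxide averaging 350 ppm, and lasted 6 to 7 weeks by the protocol and 2 months by the design text. Total RNA of the lung was hybridised to 20 Illumina bead arrays, which report the brightness of each probe and a detection p against negative-control beads. Batch 1, as the labels call it, held 3 arrays of each of the 4 groups, and batch 2 held 4 RA and 4 CS arrays. Arrays carry the replicate number of their label descriptions, 4 to 7 in batch 2, where the titles count from 1 again. The titles of the CS_Los arrays also carry other numbers than those used here. The labels do not state that each array came from its own animal, and a p-value then reflects spread among samples that may be technical.

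A dividing cell first copies its DNA and then pulls the copies apart. Replication genes encode the MCM helicase that unwinds DNA at origins, the sliding clamp that holds DNA polymerases on the template, and the enzymes that make nucleotides. They are switched on in late G1 and S phase, largely through E2F factors, while mitosis genes peak later, in G2 and M phase, largely through complexes that bind CHR and CCAAT elements in their promoters. Most cells of the adult lung rest outside the cell cycle. In a bulk tissue, fewer dividing cells and less RNA per dividing cell cannot be told apart.

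Promoters are shown for 6 members because they hold the letters by which the groups of genes differ most, and because Mcm6 carries the difference under smoke described below. Each is 300 bases from RefSeq (GRCm38.p6), 250 before and 50 after the gene's start, read 5′ to 3′ on the gene's strand. Capitals mark letters that match an E2F motif, a CHR motif or CCAAT, searched on both strands. E2F motifs were the word TTCGCGC, the related word TTGGCGC, and also the words TTCCCGC as well as TTGCCGC, while CHR motifs were the word TTTGAA and the related word TTCGAA. The Mcm6 window holds 2 pairs of overlapping E2F matches and the Mcm5 window holds 1, so each such pair reads as a single longer run of capitals.
Mcm6 (chr1:128359656-128359955, - strand): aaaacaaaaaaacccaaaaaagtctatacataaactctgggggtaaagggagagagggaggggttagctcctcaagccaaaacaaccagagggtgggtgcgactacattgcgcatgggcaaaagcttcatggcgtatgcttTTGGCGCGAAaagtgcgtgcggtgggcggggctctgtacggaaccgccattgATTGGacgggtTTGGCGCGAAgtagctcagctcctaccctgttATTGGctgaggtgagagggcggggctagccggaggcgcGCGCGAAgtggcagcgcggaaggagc
Mcm5 (chr8:75109259-75109558, + strand): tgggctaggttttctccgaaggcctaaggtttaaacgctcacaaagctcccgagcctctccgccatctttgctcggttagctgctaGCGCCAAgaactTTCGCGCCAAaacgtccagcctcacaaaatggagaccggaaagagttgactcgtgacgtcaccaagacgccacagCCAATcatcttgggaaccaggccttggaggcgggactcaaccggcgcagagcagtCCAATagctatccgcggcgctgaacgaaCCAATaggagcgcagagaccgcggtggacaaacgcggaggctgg
Rrm2 (chr12:24708004-24708303, + strand): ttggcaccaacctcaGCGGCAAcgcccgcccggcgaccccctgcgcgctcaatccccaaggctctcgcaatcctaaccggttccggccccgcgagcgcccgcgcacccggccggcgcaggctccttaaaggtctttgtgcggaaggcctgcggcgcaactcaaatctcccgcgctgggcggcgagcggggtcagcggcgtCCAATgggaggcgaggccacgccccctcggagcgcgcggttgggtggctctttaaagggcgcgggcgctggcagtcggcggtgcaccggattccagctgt
Plk1 (chr7:122159185-122159484, + strand): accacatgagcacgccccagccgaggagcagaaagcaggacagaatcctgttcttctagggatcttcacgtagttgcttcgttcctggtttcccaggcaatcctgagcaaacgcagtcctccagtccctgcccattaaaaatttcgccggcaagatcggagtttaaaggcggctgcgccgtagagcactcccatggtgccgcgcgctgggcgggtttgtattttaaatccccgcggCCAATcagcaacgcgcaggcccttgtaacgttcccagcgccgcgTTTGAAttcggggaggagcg
Cenpa (chr5:30666636-30666935, + strand): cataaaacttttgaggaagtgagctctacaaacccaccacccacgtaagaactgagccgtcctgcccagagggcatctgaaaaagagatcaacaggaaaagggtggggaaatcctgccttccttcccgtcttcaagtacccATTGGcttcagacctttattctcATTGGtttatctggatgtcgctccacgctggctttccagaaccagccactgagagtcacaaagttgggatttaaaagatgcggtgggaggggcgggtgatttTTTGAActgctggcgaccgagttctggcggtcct
Prc1 (chr7:80294201-80294500, + strand): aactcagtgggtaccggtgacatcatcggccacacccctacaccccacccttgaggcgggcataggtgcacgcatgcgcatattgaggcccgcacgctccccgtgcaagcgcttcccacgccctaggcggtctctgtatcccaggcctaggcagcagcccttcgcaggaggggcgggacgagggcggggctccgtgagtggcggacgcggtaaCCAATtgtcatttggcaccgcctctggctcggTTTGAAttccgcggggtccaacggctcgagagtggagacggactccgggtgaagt

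E2F letters stood in the promoters of 6 of the 10 replication genes with a promoter in the table (60%), in 3 of 18 mitosis genes (16.7%) and in 10.9% of 27025 mouse genes. CHR letters showed the opposite split, with 2 of 10 replication genes (20%), 14 of 18 mitosis genes (77.8%) and 21.7% of all genes. CCAAT was present in 8 of 10 replication genes (80%), 16 of 18 mitosis genes (88.9%) and 41.1% of all genes. The first base of the CHR matches in mitosis genes lay at a median of -21 from the start, and that of the E2F matches in replication genes at -67. Mcm6, Mcm5 and Rrm2 hold E2F letters and no CHR letters, and Plk1, Cenpa and Prc1 hold CHR letters and no E2F letters. A match of letters is a description and says nothing of binding in these lungs.

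Arrays of batch 2 were brighter, with median probe signals of 87.4 to 100 against 57.2 to 72.3 in batch 1. A probe was kept where its detection p was under 0.05 on at least 3 arrays, which 17012 of 25697 probes passed, and the tests covered 12719 features (11196 named genes and 1523 unnamed probes), each gene by its brightest kept probe. All values below are normalized log2 signals or log2 differences of them.

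The first question was which members these lungs expressed above background. All 11 replication genes had a kept probe, against 14 of the 19 mitosis genes with a probe. Bub1 (a kinase of the spindle checkpoint), Ccnb2 (a B-type cyclin), Cenpe (a centromere motor protein), Kif11 (the motor that pushes spindle poles apart) and Kif20a (a motor of cytokinesis) were detected on 0 of 20 arrays. Their raw signals ran from 35.8 to 57.6 for Ccnb2 and from 43.3 to 70.2 for Kif11, and they could not be tested. In total 39 of the 51 member probes were kept, and the other 12 were detected on 0 arrays. The members tested passed the filter by being detected, so their counts do not speak for all 34 genes.

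Of the 25 tested members, 17 were detected on all 20 arrays, 8 of them replication genes and 9 mitosis genes. The other 8 were detected on some arrays only. Mcm7, a subunit of the MCM helicase, was detected on 3 arrays, all in batch 2. Mcm3, another subunit, was detected on 10 arrays, 8 of them the RA and CS arrays of batch 2. Ube2c, which tags mitotic proteins for breakdown, was detected on 6 arrays and Ccna2, the cyclin of S phase and G2, on 8 arrays, all of the latter in batch 1. Top2a, the topoisomerase that untangles chromosomes, was detected on 14, Cdk1, the kinase that starts mitosis, on 16, Rrm2 on 17 and Kif23 on 18. Each array detected 20 to 23 of the 25 tested members in batch 1 and 21 to 23 in batch 2.

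**Figure D1:**
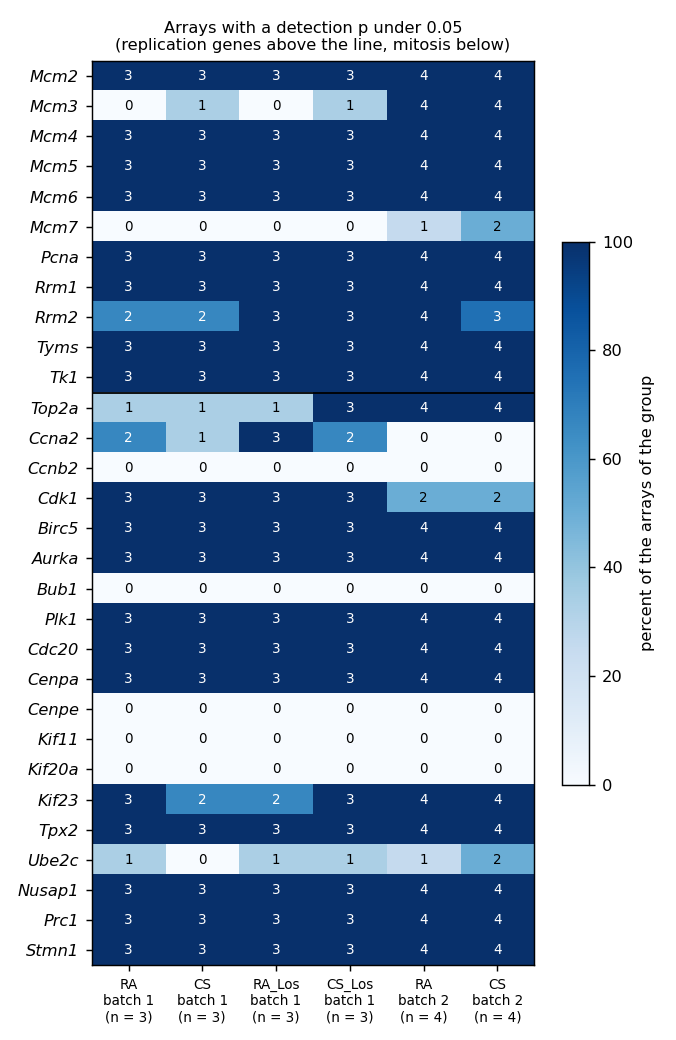
Number of arrays in each group and batch with a detection p under 0.05 for the tested or only probe of the 30 members with a probe, coloured by the percent of the group's arrays, replication genes above the line and mitosis genes below it. Bub1, Ccnb2, Cenpe, Kif11 and Kif20a are at 0 in every column, Ccna2 is at 0 in batch 2 and Mcm7 at 0 in batch 1.

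Smoke against room air was the first comparison, fitted on 14 arrays (7 RA and 7 CS) with a term for batch. Of the 25 tested members 1, Mcm6, was higher in CS and 0 were lower at an adjusted p under 0.05 (limma, Benjamini-Hochberg over all 12719 features). The background was 12.8% of all features called, with 6.09% higher and 6.73% lower. At an unadjusted p under 0.05 the count was also 1 of 25, against 26.8% of all features. The median log2 change was -0.049 for replication genes and -0.054 for mitosis genes, beside -0.005 for all features. The median size of the change, sign dropped, was 0.082 over the members and 0.120 over all features. The 95% confidence intervals of the 25 changes all lay between -0.61 and 0.60 on the log2 scale, and the median residual SD was 0.225 for replication genes, 0.245 for mitosis genes and 0.218 for all features. The spread between arrays was thus close to that of other genes.

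Mcm6, a subunit of the helicase that unwinds DNA at replication origins, was 5.56, 6.11 and 6.37 (lowest, median, highest) on the 7 RA arrays and 6.23, 6.47 and 6.60 on the 7 CS arrays. Over both batches the groups overlapped, and within each batch every CS array was above every RA array, 3 of 3 in batch 1 and 4 of 4 in batch 2. Such a separation, in either direction, was seen for 20% of all features in batch 1 and 13.3% in batch 2. In batch 2 the RA arrays read 5.96, 6.11, 6.31 and 6.37 and the CS arrays 6.40, 6.47, 6.55 and 6.60. The change was 0.39 on the log2 scale (SE 0.101, 95% confidence interval 0.18 to 0.60, 1.31-fold, limma adjusted p 0.0187), and it ranked 944 of 12719 features by p.

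The call rests on 1 of 3 kept Mcm6 probes. With every kept probe tested, the brightest probe rose by 0.39 (adjusted p 0.0212). Another kept probe differed by 0.13 (adjusted p 0.525), with 1 of 3 CS arrays above all RA arrays in batch 1 and 3 of 4 in batch 2. The remaining one differed by 0.25 (adjusted p 0.0836), with 2 of 3 and 2 of 4. All 3 differences had the same sign, and 2 of the 3 did not pass the test. That last probe also fell by 1.42 from batch 1 to batch 2, where it was detected on 6 of 8 arrays, while the other probes differed between batches by 0.21 and 0.26. The Mcm6 probe that was not kept was detected on 0 arrays.

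**Figure D2:**
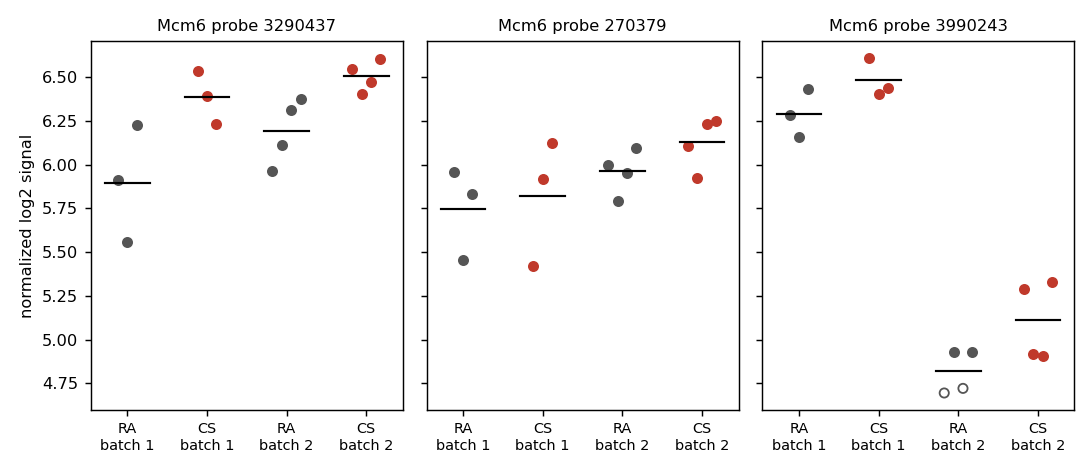
Normalized log2 signal of the 3 kept Mcm6 probes on each RA (grey) and CS (red) array by batch, with group means as bars and open points where the detection p was 0.05 or above. The left probe was tested for the gene and has all CS arrays above all RA arrays in both batches, while the right probe dropped by 1.42 in batch 2.

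The other MCM subunits did not pass the test. Mcm3 read 4.58, 5.24 and 5.62 in RA and 4.89, 5.15 and 5.63 in CS (lowest, median, highest), a difference of 0.11 (adjusted p 0.484), with detection on 4 of 7 RA and 5 of 7 CS arrays. Mcm4 read 10.05, 10.15 and 10.44 in RA and 9.88, 10.07 and 10.42 in CS, a difference of -0.09 (adjusted p 0.561). The groups overlapped for both. Mcm2 and Mcm5 differed by -0.05 and -0.06 (adjusted p 0.827 and 0.642), and Mcm7, near background on most arrays, by 0.04 (adjusted p 0.812).

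The clamp and nucleotide genes were short of the threshold. Pcna, the sliding clamp of replication and repair, read 9.16, 9.90 and 10.27 in RA and 9.29, 9.55 and 10.06 in CS, a difference of -0.19 (95% confidence interval -0.40 to 0.02, adjusted p 0.229). In batch 1 the 3 CS arrays lay below the 3 RA arrays, and in batch 2 the groups overlapped. Rrm2, the regulated subunit of ribonucleotide reductase, read 4.44, 5.30 and 5.77 in RA and 4.65, 5.04 and 5.53 in CS, a difference of -0.22 (-0.61 to 0.16, adjusted p 0.473). Tk1, which salvages thymidine, read 5.16, 5.59 and 6.02 in RA and 5.26, 5.87 and 6.52 in CS, a difference of 0.27 (-0.07 to 0.60, adjusted p 0.301). The groups overlapped for both genes, and the intervals of Mcm6, Tk1 and Rrm2 reached farthest from 0 among the replication genes. Rrm1, the other reductase subunit, and Tyms, which makes thymidylate, each differed by -0.05 (adjusted p 0.786 and 0.812).

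Among mitosis genes 0 of 14 passed, also at an unadjusted p under 0.05 (limma). Cenpa, the histone that marks centromeres, had the highest difference: it read 8.16, 8.49 and 9.13 in RA and 8.35, 8.67 and 9.22 in CS, 0.22 apart (-0.10 to 0.54, adjusted p 0.379). Top2a followed with 4.67, 5.33 and 5.83 in RA and 4.85, 5.56 and 6.42 in CS, 0.19 apart (-0.19 to 0.57, adjusted p 0.547). The RA and CS ranges overlapped for both. Cdc20, which activates the anaphase-promoting complex, read 6.64, 6.89 and 7.30 in RA and 6.62, 6.98 and 7.59 in CS, 0.06 apart (adjusted p 0.817).

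At the other end were genes of the spindle. Prc1, which bundles microtubules between the separating chromosomes, read 7.54, 7.85 and 8.22 in RA and 7.25, 7.74 and 7.94 in CS, a difference of -0.21 (-0.47 to 0.04, adjusted p 0.27). Nusap1, a spindle microtubule protein, read 6.82, 7.00 and 7.68 in RA and 6.51, 7.06 and 7.40 in CS, a difference of -0.17 (-0.37 to 0.03, adjusted p 0.28). Aurka, a kinase of the spindle poles, read 5.33, 5.77 and 5.90 in RA and 5.25, 5.73 and 5.85 in CS, a difference of -0.10 (adjusted p 0.618). Again the groups overlapped for every gene named. The remaining 8 mitosis genes, Ccna2, Cdk1, Birc5 (survivin, of the chromosomal passenger complex), Plk1 (a mitotic kinase), Kif23 (a motor of cytokinesis), Tpx2 (which activates Aurka), Ube2c and Stmn1 (stathmin, which loosens microtubules), differed by -0.09 to 0.01.

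**Figure D3:**
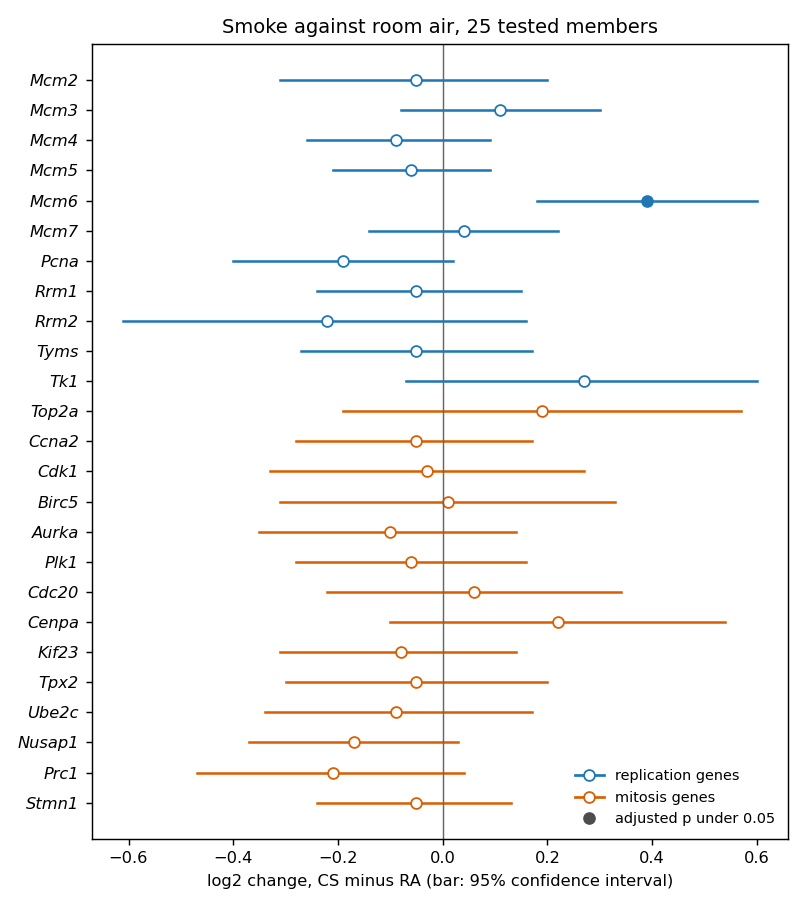
Log2 change in CS against RA, with its 95% confidence interval, for the 25 tested members in the fit over 14 arrays with batch as a term, replication genes in blue and mitosis genes in orange. The filled point, Mcm6 at 0.39, is the member with an adjusted p under 0.05, and it is the only interval that leaves out 0.

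Several members were read by more than a single kept probe, and apart from Mcm6 none of these probes was called. The 5 Tyms probes differed by -0.25 to -0.05, the 4 Cdc20 probes by -0.02 to 0.16 and the 3 Birc5 probes by 0.00 to 0.15. Both Cdk1 probes were within 0.03 of 0 (-0.03 and -0.02), the Rrm2 probes differed by -0.22 and -0.05, and the Tk1 probes by 0.27 and 0.06.

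Within batches the members gave 0 calls. In batch 1, fitted over its 12 arrays, 0 of 25 were called, beside a background of 0.00786%, and 0 had an unadjusted p under 0.05, beside 7.85% (limma). Mcm6 differed by 0.49 there (adjusted p 0.674) and Tk1 by 0.29. Mcm3 came next, with every CS array above every RA array, but 0 of 3 RA arrays detected it and no size is given. The lowest replication differences were -0.29 for Pcna, -0.17 for Rrm2 and -0.13 for Rrm1. The mitosis genes ran from 0.20 for Top2a, 0.10 for Birc5 and 0.08 for Cenpa down to -0.30 for Nusap1 and -0.32 for Prc1. Ube2c lay as low, but was not above background on the 3 CS arrays.

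In batch 2, fitted over its 8 arrays, 0 of 25 were called against 5.51% of all features (2.42% higher and 3.09% lower). At an unadjusted p under 0.05 there were 2 members, Mcm6 and Cenpa, against 20.8% of all features (limma). Mcm6 differed by 0.32 (adjusted p 0.115). Cenpa read 8.24, 8.49, 8.54 and 8.78 in RA and 8.67, 8.67, 8.79 and 9.22 in CS, which overlap, and differed by 0.33 (adjusted p 0.234). The next highest were Tk1 at 0.25 and Mcm7 at 0.07 among replication genes and Top2a at 0.19 and Cdc20 at 0.18 among mitosis genes. The lowest were Rrm2 at -0.27, Pcna at -0.12 and Mcm4 at -0.09 among replication genes and Prc1 at -0.14, Aurka at -0.08 and Nusap1 at -0.07 among mitosis genes. By its tested probe, Mcm6 thus had the highest difference of the replication genes in each batch. Its other kept probes differed by 0.07 and 0.19 in batch 1 and by 0.17 and 0.29 in batch 2.

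The mitosis genes' median change was -0.164 in batch 1, with 3 of 14 above 0, and 0.032 in batch 2, with 9 of 14 above 0. Of all features 50.3% were above 0 in batch 1 and 49.2% in batch 2. For replication genes the medians were -0.041 and -0.024. The difference of the smoke effects between batches passed for 0 of 25 members, beside 0.0157% of all features, and for 0 at an unadjusted p under 0.05, beside 4.65% (limma). In this test, batch 2 minus batch 1, 12 of the 14 mitosis genes were above 0 with a median of 0.216, and 4 of the 11 replication genes with a median of -0.023. Of all features 49% were above 0, with a median of -0.006. The members were read on the same arrays and are not independent, and these counts carry no test. The highest were Cdc20 at 0.29 among mitosis genes and Pcna at 0.17, Rrm1 at 0.14 and Mcm2 at 0.07 among replication genes. The lowest were Birc5 at -0.16, Top2a at -0.01 and Cdk1 at 0.03, and Mcm6 at -0.17 and Rrm2 at -0.10. Ube2c and Ccna2 lay higher still and Mcm3 lower, but each was not above background on all arrays of at least 1 group and batch, so no size is given. Every adjusted p of the members was 0.998.

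Averaging the members on each array showed the same overlap. Measured from the RA mean of its batch, the 11 replication genes averaged -0.0991 to 0.109 on the CS arrays of batch 1 and -0.0713 to 0.137 on its RA arrays. In batch 2 the averages ran from -0.128 to 0.152 in CS and from -0.0471 to 0.0961 in RA. For the 14 mitosis genes they ran from -0.267 to 0.0206 in CS and -0.0645 to 0.0954 in RA of batch 1, and from -0.203 to 0.29 in CS and -0.0827 to 0.185 in RA of batch 2. CS arrays thus held both the lowest and the highest mitosis average among the 14 RA and CS arrays, and on single arrays the gene groups could lie on opposite sides of the RA mean: CS 6 of batch 2 stood at 0.182 for mitosis and -0.0372 for replication, and RA_Los 2 at -0.221 and 0.109.

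**Figure D4:**
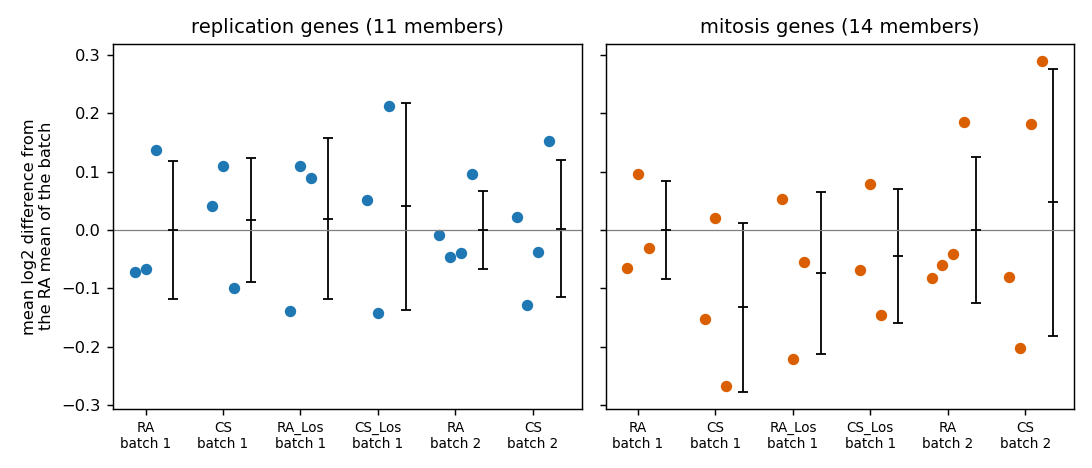
Mean log2 difference from the RA mean of the batch for the 11 replication genes (left) and the 14 mitosis genes (right), with 1 point per array and mean ± SD beside each group. The groups overlap in both panels, and the CS arrays of batch 2 spread from -0.203 to 0.29 for mitosis genes.

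All losartan arrays were in batch 1, so the losartan comparisons rest on 3 arrays a group, with 4 groups sharing the estimate of the spread. Without smoke (RA_Los against RA) 0 of 25 members were called, beside 0.00786% of all features, and 0 had an unadjusted p under 0.05, beside 4.76% (limma). Under smoke (CS_Los against CS) the count was 0 of 25, beside 0% of all features, again with 0 at an unadjusted p under 0.05, beside 5.94%. Smoke under losartan (CS_Los against RA_Los) gave 0 calls beside 0%, with 1 member, Mcm7, at an unadjusted p under 0.05, beside 5.35% of all features. Mcm7 was not detected on any of the 12 arrays of batch 1, so its size is left out. The interaction of losartan with smoke gave 0 of 25, beside 0% of all features, and 0 at an unadjusted p under 0.05, beside 7.17%. These comparisons share arrays with each other, and the RA and CS arrays of batch 1 also serve in the smoke comparison.

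The 95% confidence intervals show how coarse these comparisons were. Over the members they ran from -0.72 to 0.90 for losartan without smoke, from -0.76 to 0.81 under smoke and from -1.30 to 1.07 for the interaction. The median changes were 0.022 for replication and -0.125 for mitosis genes in RA_Los against RA, and 0.025 and 0.084 in CS_Los against CS. In CS_Los against RA_Los they were -0.013 and 0.049. Over all features the 3 medians were -0.007, -0.005 and -0.010.

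Pcna had the highest replication difference between CS_Los and CS. Its arrays of batch 1 read 10.16, 10.23 and 10.27 in RA, 9.81, 9.95 and 10.68 in RA_Los, 9.81, 9.92 and 10.06 in CS and 10.18, 10.33 and 10.35 in CS_Los. All CS_Los arrays lay above all CS arrays, a separation that 10.6% of all features showed in either direction. The difference was 0.36 (SE 0.198, 95% confidence interval -0.07 to 0.78, adjusted p 0.879), the change without smoke was -0.07, and the interaction was 0.43 (adjusted p 0.809). The RA_Los arrays lay both below and above the RA range.

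Mcm6 read 5.56, 5.91 and 6.22 in RA, 5.87, 6.09 and 6.64 in RA_Los, 6.23, 6.39 and 6.53 in CS and 5.64, 6.44 and 6.49 in CS_Los. The losartan arrays overlapped with the untreated ones in room air and in smoke. The change was 0.30 without smoke and -0.20 under smoke (adjusted p 0.964 and 0.954), the interaction -0.50 (-1.30 to 0.29, adjusted p 0.838) and the smoke difference under losartan -0.01 (-0.57 to 0.55, adjusted p 0.996). Its other kept probes differed by -0.13 and -0.07 with losartan in room air, opposite to the tested probe, by -0.27 and -0.10 under smoke, and by 0.16 and -0.07 in CS_Los against RA_Los.

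The other MCM subunits stayed within overlapping ranges in most of these comparisons. Mcm4 read 10.07, 10.25 and 10.44 in RA, 10.21, 10.25 and 10.38 in RA_Los, 10.05, 10.07 and 10.42 in CS and 9.95, 10.09 and 10.18 in CS_Los. Every CS_Los array was below every RA_Los array, as for 7.89% of all features in either direction, a difference of -0.21 (adjusted p 0.984). Under smoke losartan's change for Mcm4 was -0.11, and the interaction was -0.13.

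Mcm5 read 8.14, 8.16 and 8.31 in RA, 7.65, 8.10 and 8.33 in RA_Los, 8.15, 8.17 and 8.18 in CS and 8.03, 8.26 and 8.29 in CS_Los. Mcm2 read 6.35, 6.81 and 7.17 in RA, 6.23, 6.70 and 6.95 in RA_Los, 6.52, 6.70 and 6.84 in CS and 6.25, 6.42 and 7.10 in CS_Los. Without smoke losartan's changes were -0.18 and -0.15 for these subunits, and the interaction for Mcm5 was 0.20. Mcm3 read 4.58, 4.70 and 4.84 in RA, 4.52, 4.85 and 4.90 in RA_Los, 4.89, 4.94 and 4.98 in CS and 4.81, 4.88 and 5.50 in CS_Los, but was detected on only 1 CS and 1 CS_Los array of these 12, so no size is given.

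The nucleotide genes overlapped between losartan and untreated arrays as well. Tk1 read 5.16, 5.19 and 5.59 in RA, 5.12, 5.27 and 5.67 in RA_Los, 5.26, 5.35 and 6.19 in CS and 5.60, 5.70 and 5.83 in CS_Los, with a smoke difference under losartan of 0.35 (adjusted p 0.975). Tyms read 7.05, 7.57 and 7.71 in RA, 7.09, 7.31 and 7.40 in RA_Los, 7.32, 7.35 and 7.56 in CS and 7.19, 7.48 and 7.62 in CS_Los. Its change was -0.18 with losartan in room air, its smoke difference under losartan 0.17 and its interaction 0.21. Other kept Tyms probes with some detection in RA, RA_Los and CS_Los differed by 0.22, -0.16 and 0.60 in CS_Los against RA_Los. With losartan in room air the same probes differed by -0.06, -0.19 and -0.24. The last of these probes was detected on only 1 RA, 1 RA_Los and 2 CS_Los arrays of batch 1, so its sizes are uncertain. The CS_Los arrays of Tk1 were the tightest of its 4 groups.

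Rrm1 read 7.22, 7.33 and 7.76 in RA, 7.27, 7.60 and 7.73 in RA_Los, 7.21, 7.34 and 7.38 in CS and 7.00, 7.16 and 7.72 in CS_Los. Rrm2 read 4.44, 5.50 and 5.77 in RA, 5.02, 5.23 and 5.50 in RA_Los, 4.65, 5.04 and 5.53 in CS and 5.11, 5.22 and 5.35 in CS_Los. The reductase subunits thus overlapped in every group. Losartan's change was 0.09 for Rrm1 in room air and 0.15 for Rrm2 under smoke, and Rrm1 differed by -0.24 in CS_Los against RA_Los (adjusted p 0.984).

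Among mitosis genes, Ccna2 and Ube2c stood apart between CS and CS_Los, near the detection limit. Ccna2 read 4.85, 5.09 and 5.30 in RA, 5.01, 5.19 and 5.74 in RA_Los, 4.58, 4.90 and 4.94 in CS and 4.96, 5.19 and 5.23 in CS_Los, with 2, 3, 1 and 2 arrays detected. Its change was 0.32 under smoke (adjusted p 0.882) and 0.23 in room air, and it differed by -0.19 in CS_Los against RA_Los. Ube2c read 4.66, 4.95 and 5.27 in RA, 4.79, 4.84 and 5.04 in RA_Los, 4.50, 4.62 and 4.79 in CS and 4.80, 4.85 and 5.36 in CS_Los, with 1, 1, 0 and 1 arrays detected, so its CS level is known only as not above background. All CS_Los arrays lay above all CS arrays for both genes, as they did for Pcna, so 3 of 25 members did not overlap, beside 10.6% of all features, and none of them passed the test.

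Cenpa and Top2a, the mitosis genes with the highest differences under smoke, overlapped in each losartan comparison. Cenpa read 8.16, 8.31 and 9.13 in RA, 8.65, 8.68 and 9.25 in RA_Los, 8.35, 8.54 and 8.95 in CS and 8.46, 8.73 and 8.93 in CS_Los. Its change with losartan was 0.33 in room air, its smoke difference under losartan -0.15 and its interaction -0.23 (adjusted p 0.964, 0.995 and 0.942). Top2a read 4.67, 4.86 and 5.33 in RA, 4.53, 4.79 and 5.07 in RA_Los, 4.85, 4.89 and 5.71 in CS and 5.03, 5.08 and 5.37 in CS_Los, a smoke difference under losartan of 0.36 (adjusted p 0.977), with 1, 1, 1 and 3 arrays detected.

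The lowest mitosis differences with losartan in room air were those of Tpx2, Prc1 and Stmn1. Tpx2 read 5.47, 5.70 and 5.90 in RA, 5.16, 5.39 and 5.81 in RA_Los, 5.23, 5.60 and 5.78 in CS and 5.56, 5.62 and 5.88 in CS_Los. Prc1 read 7.75, 8.04 and 8.22 in RA, 7.48, 7.85 and 7.98 in RA_Los, 7.44, 7.74 and 7.87 in CS and 7.69, 7.77 and 8.02 in CS_Los. Their changes with losartan in room air were -0.24 and -0.23 (adjusted p 0.964 for each), with interactions of 0.39 and 0.37. Tpx2 differed by 0.23 in CS_Los against RA_Los. Stmn1 read 11.09, 11.22 and 11.34 in RA, 10.91, 11.05 and 11.14 in RA_Los, 10.91, 11.09 and 11.13 in CS and 10.89, 11.16 and 11.19 in CS_Los, and differed by -0.18 with losartan in room air. All of these groups overlapped.

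Cdk1 read 5.79, 6.11 and 6.42 in RA, 5.89, 6.11 and 6.26 in RA_Los, 5.55, 5.98 and 6.65 in CS and 5.71, 5.89 and 6.28 in CS_Los. Cdc20 read 6.64, 6.89 and 7.10 in RA, 6.64, 6.65 and 7.14 in RA_Los, 6.62, 6.65 and 7.05 in CS and 6.46, 6.66 and 6.85 in CS_Los. Birc5 read 5.54, 5.88 and 5.98 in RA, 5.40, 5.60 and 5.98 in RA_Los, 5.59, 5.93 and 6.18 in CS and 5.59, 5.74 and 5.98 in CS_Los. These genes had the lowest mitosis differences of losartan under smoke, -0.10, -0.12 and -0.13, and Cdk1 and Cdc20 differed by -0.13 and -0.15 in CS_Los against RA_Los. The other kept probes of Cdk1 and Cdc20 had the opposite sign in CS_Los against RA_Los. The Cdk1 probe differed by 0.26, with 1 array of each group detected, and Cdc20 probes by 0.14 and 0.21. In CS_Los against CS the same probes differed by -0.07 for Cdk1 and by -0.18 and -0.23 for Cdc20. The other Birc5 probes, detected on 1 CS array each, differed by 0.13 and 0.16 there. The remaining kept Cdc20 probe was above background on 2 CS_Los arrays. No RA_Los array and no CS array of batch 1 detected it, so no size is given. Kif23 read 5.11, 5.24 and 5.25 in RA, 4.94, 4.98 and 5.30 in RA_Los, 4.62, 5.13 and 5.16 in CS and 5.07, 5.18 and 5.21 in CS_Los, a change of 0.19 under smoke (adjusted p 0.923). Aurka, Plk1 and Nusap1, which were not among these extremes, differed by -0.13 to -0.10 with losartan in room air and by 0.07 to 0.14 under smoke.

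More members differed between the batches than between smoke and room air. Between the RA and CS arrays of batch 2 and those of batch 1, 12 of 25 members differed (6 higher and 6 lower in batch 2), beside a background of 59.3% of all features (27.9% higher and 31.4% lower), in a limma test chosen after the data were seen. At an unadjusted p under 0.05 there were also 12, beside 63.5%. Cdk1, detected on 4 of 8 arrays in batch 2, differed by -1.28 (adjusted p 1.27e-06), Stmn1 by -0.64, Pcna by -0.60, Nusap1 by -0.48 and Tpx2 by -0.43, and Ccna2 was not detected in batch 2. Kif23 was higher by 0.56, Tk1 by 0.40 and Tyms by 0.37. Top2a and Mcm3 were higher too, but in batch 1 they were detected on only 2 and 1 of 6 arrays, and Mcm7 on none, so no sizes are given for these genes. Every Cdk1 and Stmn1 array of batch 2 was below every array of batch 1, and every Mcm3 and Kif23 array above, so 4 of 25 members did not overlap between the batches, beside 26.1% of all features.

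Probes of the same gene went opposite ways between the batches. Of the 5 Tyms probes, 3 differed by -0.78, 0.37 and 1.03, each past the threshold in a fit of all kept probes, and the other 2 were not detected on any RA or CS array of batch 2. The Cdk1 probe that was tested differed by -1.28 and the other kept one by 0.38 (adjusted p 1.05e-06 and 0.105). The brightest Birc5 probe differed by 0.25 (adjusted p 0.159) and the others, each detected on 1 of 6 arrays in batch 1, by 0.70 and 1.05. Detection moved likewise: the Tyms probe at -0.78 was detected on 6 of 6 arrays of batch 1 and 1 of 8 of batch 2, and the Tyms probe at 1.03 on 1 of 6 and 8 of 8. For these genes the change between batches depends on the probe. Probes detected on only 1 array of a batch were near background there, so their sizes are uncertain.

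**Figure D5:**
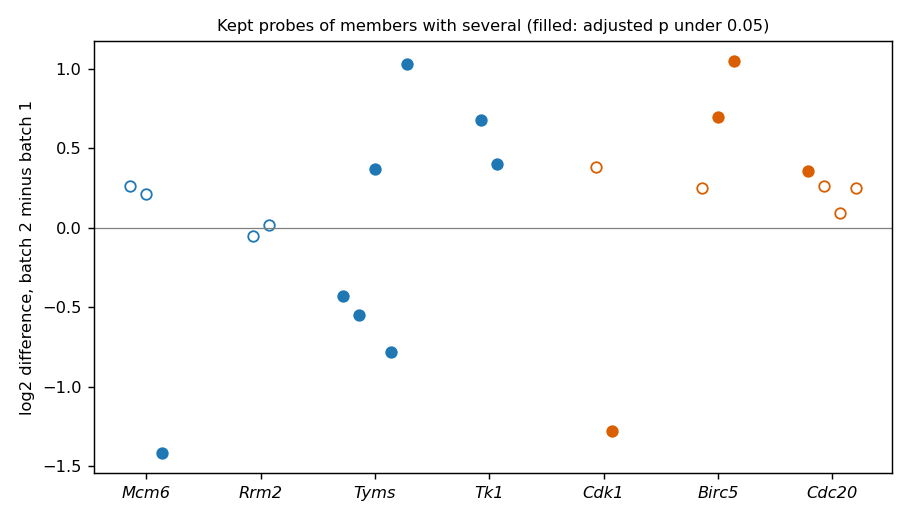
Log2 difference of batch 2 from batch 1 over the RA and CS arrays for each kept probe of the 7 members with several kept probes, filled where the adjusted p was under 0.05. Tyms spans -0.78 to 1.03, and Mcm6 and Cdk1 each hold a probe far below the others, at -1.42 and -1.28.

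Other genes of the same machinery were read through longer lists. Of 36 tested genes for origin licensing and the replication fork, 1 rose and 1 fell under smoke, with a median of -0.037. Tipin, which protects stalled forks, read 7.88, 8.18 and 8.37 in RA and 8.53, 8.66 and 9.08 in CS and rose by 0.61 (limma adjusted p 0.000375), without overlap. Dbf4, which activates the kinase that fires origins, read 6.32, 6.48 and 6.64 in RA and 5.89, 6.22 and 6.44 in CS and fell by 0.27 (adjusted p 0.041). Of 35 tested genes for the spindle and division, 1 rose and 2 fell, with a median of -0.015: the spindle motor Kif15 rose by 0.42 (adjusted p 0.0175), Kif18a, a motor that aligns chromosomes, changed by -0.61 (adjusted p 0.000482) and Anln, a protein of the cleavage furrow, by -0.35 (adjusted p 0.031). These counts stand beside the background of 12.8% of all features.

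Of 20 tested G1 cyclins, E2F factors and their partners, 0 rose and 1 fell, beside 12.8% of all features called. The median change of the list was -0.145. Ccnd3, a D-type cyclin that carries cells out of G1, read 11.25, 11.43 and 11.64 in RA and 10.82, 11.10 and 11.53 in CS and changed by -0.33 (adjusted p 0.0122). The other D-type cyclins did not pass, with differences of -0.21 for Ccnd2 and 0.08 for Ccnd1 (adjusted p 0.464 and 0.599). In batch 2 alone Ccnd2 did pass, at -0.44 (adjusted p 0.0462), and in batch 1 its difference was 0.10 (adjusted p 0.961).

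Genes that hold the cycle back went both ways under smoke. Of 26 tested inhibitors of cyclin-dependent kinases and growth arrest genes, 3 rose and 5 fell, beside 12.8% of all features called. Cdkn1a, which encodes the inhibitor p21, read 10.50, 10.79 and 11.43 in RA and 8.61, 9.34 and 9.66 in CS, and fell by 1.67 (SE 0.174, adjusted p 1.57e-05). No CS array reached the lowest RA array. The change was -1.90 in batch 1 (adjusted p 0.373) and -1.50 in batch 2 (adjusted p 0.00077).

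Cdkn2c, which blocks Cdk4 and Cdk6, read 7.40, 8.36 and 8.94 in RA and 8.04, 9.37 and 9.56 in CS and rose by 0.79 (adjusted p 0.000297). The stress-induced kinases Plk2 and Plk3 rose by 0.57 and 0.34 (adjusted p 0.00352 and 0.0276), with every CS array above every RA array for Plk2. Ccng2, an atypical cyclin of arrested cells, changed by -0.52, Sesn2, a stress sensor, by -0.40, Trp53inp1, a p53 target, by -0.32 and Cdkn1c, the inhibitor p57, by -0.28 (adjusted p 0.00107, 0.0293, 0.0191 and 0.0208). Wee1, the kinase that restrains Cdk1, and Cdkn1b, the inhibitor p27, differed by -0.39 and -0.04 without passing (adjusted p 0.211 and 0.871). In batch 2 alone Wee1 did pass, at -0.67 (adjusted p 0.0107), and in batch 1 its difference was -0.02 (adjusted p 0.995). The difference between batches did not pass for Wee1 (-0.65, limma adjusted p 0.998) or for Ccnd2 (-0.54, adjusted p 0.998).

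None of these 4 lists gave a call in RA_Los against RA, CS_Los against CS or CS_Los against RA_Los. Cdkn1a had the largest difference among the genes always named: its RA_Los arrays read 8.64, 8.99 and 10.46 and its CS_Los arrays 9.33, 9.57 and 11.26. The change with losartan was -1.74 in room air (SE 0.524, unadjusted limma p 0.00559, adjusted p 0.964) and 0.85 under smoke (adjusted p 0.88). The RA arrays of batch 1 are the reference of both the smoke and the room air losartan change in that batch, so the changes are not independent. Wee1 differed by 0.43 and -0.15, Ccnd1 by 0.24 and -0.25 and Ccnd2 by 0.22 and -0.42 with losartan in room air and under smoke, short of the threshold.

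Markers of other cell types moved in the same smoke comparison, and their part in the Mcm6 result was not tested. Counts of the marker lists, here and below, stand beside 6.09% of all features higher and 6.73% lower. Of 8 tested B cell markers 3 rose and 0 fell, Cd79a by 1.11, Cd79b by 0.98 and Cd22 by 0.51. The mean log2 level of the list ran from 5.84 to 5.99 in RA and 6.15 to 6.82 in CS of batch 1, and from 5.80 to 6.65 and 6.30 to 7.19 in batch 2, with Pax5 not detected on any array. Of 9 tested T cell markers 2 rose, Cd6 by 0.77 and Cd8b1 by 0.78, with levels of 6.07 to 6.41 in RA and 6.56 to 6.93 in CS of batch 1 and 6.01 to 7.02 and 6.68 to 7.04 in batch 2. Cd4 and Cd8a were not detected. Among thymocyte markers, Rag2, Dntt, Themis, Arpp21 and Ccr9 were not detected on any array. The 3 tested, from among Rag1, Ptcra, Cd1d1 and Tcf7, gave 0 calls. Germinal centre and plasma cell markers gave 0 higher and 1 lower (Bcl6, -0.52) of 6.

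The called genes of the neutrophil list and of the monocyte and macrophage list rose, and those of the red cell list fell. Of 8 tested neutrophil genes 4 rose (Cd177 by 2.46, Ltf by 2.32, S100a9 by 1.29 and S100a8 by 1.16) and of 6 monocyte and macrophage genes 3 rose (Cx3cr1 by 1.17, Plac8 by 1.01 and Ly86 by 0.40). Of the granulocyte precursor genes in the list, Mpo, Ctsg, Ms4a3 and Ngp were not detected on any array, while Elane and Prtn3 were tested and not called. Neutrophil levels ran from 6.06 to 6.69 in RA and 7.09 to 7.54 in CS of batch 1 and from 6.08 to 6.71 and 6.80 to 7.78 in batch 2. Of 8 erythroid genes 4 fell, and the median over the list was -1.290. Those called were Hbb-bt (-1.98), Hbb-b2 (-1.87), Alas2 (-1.69) and Slc4a1. No CS array detected Slc4a1, so its size is left out. Erythroid levels ran from 7.17 to 8.77 in RA and 6.23 to 7.02 in CS of batch 1. In batch 2 they ran from 6.73 to 8.38 and 6.73 to 7.71.

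Markers of structural cells, airway cells and alveolar macrophages gave 0 or 1 call per list, beside 12.8% of all features called. Of the alveolar type II markers 0 of 10 were called, of fibroblast markers 0 of 9, of cardiac muscle markers 0 of 8, and of endothelial markers 1 of 9 (Emcn, 0.50). Airway club and ciliated markers gave 1 of 7 (Scgb3a1, 3.14) and alveolar macrophage markers 1 of 8 (Krt79, -0.46). Type II levels ran from 12.15 to 12.79 over the RA and CS arrays of batch 1 and from 12.84 to 13.10 over those of batch 2. Circadian clock genes gave 3 higher and 4 lower of 14, with a list median of -0.037. The 4 with the lowest p were Nr1d1 at 2.17, Dbp at 2.60, Per2 at -1.60 and Per1 at -1.50. The sources used here do not give the time of day of collection.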

How the data were processed

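Lung RNA was measured on 20 arrays. The deposited table holds probe intensities on a linear scale and detection p-values, per the file headers, made with BeadStudio (version not given in the sources used here), per the submitters' processing notes. No source used here says if background was subtracted upstream. By the table's layout, a detection column belongs to the signal column on its left. A second table holds the authors' log2 values, which equal the log2 intensity shifted to a median of 8 per array (largest difference 0.0069), and served as an alternative. Number of arrays limits the precision.

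Background was corrected with limma's nec at an offset of 16, using the detection p-values, and the 20 arrays were quantile normalized and put on a log2 scale (R 4.3.3, limma 3.58.1). Detection at p under 0.05 on 3 or more arrays was required of a probe (66.2% passed). The platform annotation gave 1 symbol for 23141 probes, several for 0 and none for 2556. Each gene was tested by its kept probe with the highest mean signal. Comparisons used lmFit and eBayes with Benjamini-Hochberg adjustment over all features: CS against RA over 14 arrays with batch as a term, within batches, and losartan over the 12 arrays of batch 1. No 2 arrays were identical (highest Spearman correlation 0.978). The steps were tested on simulated data.

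The members and gene lists were chosen with earlier results of these data known. Named members are those called under smoke and, in each comparison, those with the 3 highest or 3 lowest log2 changes among replication and among mitosis genes. Up to 4 called genes with the lowest p were named from each other list, except that every called inhibitor and growth arrest gene was named. The 7 cycle regulators Cdkn1a, Cdkn1b, Cdkn1c, Ccnd1, Ccnd2, Ccnd3 and Wee1 were always named. No size is given where a group was not above background on any array. Alternatives covered background correction, normalization, the authors' values, detection filters, all probes, eBayes and array weights, the arrays fitted, handling of batch, a block for the replicate number, a mitosis group without Mki67, Ccna2 and Stmn1, and leaving out each array. Promoters were matched by symbol for 28 of the 34 members. The labels' protocol speaks of 3 groups of mice and the design text of the 4 used here.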

Additional observations from a re-analysis of the deposited data

Results flagged for a closer look

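Every combination of a tested member with a group of 4 to 10 arrays was searched for an array whose gap to the nearest other array was too large a share of the group's range (Dixon's test at the 95% level). Of 100 combinations examined 4 were found. The groups were the RA and the CS arrays of both batches and those of batch 2 alone, so the combinations overlap. The 1 in 20 that chance gives for separate groups of a single batch is therefore no yardstick for this count. All of those found lay among the 4 arrays of a group in batch 2. Aurka, the spindle pole kinase, read 5.25 on CS 5, below the 5.73 to 5.79 of the other CS arrays. Cdc20, the activator of the anaphase-promoting complex, read 7.30 on RA 7, above 6.85 to 6.92. Tpx2, which activates Aurka, read 5.55 on the same array, RA 7, above 5.02 to 5.09. Kif23, a motor of cytokinesis, read 5.37 on RA 4, below 5.70 to 5.74. None of these genes was called in any comparison of smoke or losartan with or without these arrays.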

How the results depend on the processing

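The single call among members under smoke, Mcm6, held in 12 of 14 alternative settings and in all 14 fits that left out an array (1 call in each, Mcm6 from 0.32 to 0.44, adjusted p 0.00921 to 0.0396). The Mcm6 change was 0.26 without background correction (adjusted p 0.018) and 0.27 with the authors' log2 values (adjusted p 0.0124), and 0.37 to 0.40 in the other settings. It was lost, leaving 0 calls, when all 20 arrays were fitted with batch as a term (0.39, adjusted p 0.121) and with no batch term (0.39, adjusted p 0.0937). No alternative reversed a called value. Members called stayed at 0 in every alternative of the other comparisons. Medians of the gene groups under smoke moved little: without single arrays they ran from -0.082 to 0.019 for replication and from -0.098 to -0.021 for mitosis genes.

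In the comparisons of 3 arrays a group, the medians moved with single arrays. For replication genes they ran from -0.076 to 0.088 for CS against RA in batch 1, from -0.033 to 0.127 for RA_Los against RA, from -0.085 to 0.131 for CS_Los against CS, from -0.029 to 0.192 for CS_Los against RA_Los (0.104 with all kept probes) and from -0.135 to 0.175 for the interaction. For mitosis genes they ran from -0.259 to -0.047 for CS against RA in batch 1, from 0.001 to 0.210 for CS_Los against CS, from -0.063 to 0.100 for CS_Los against RA_Los and from 0.083 to 0.301 for the interaction. These medians carry no test, and the cause was not tested.

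The replicate number as a block left Mcm6 as the call (0.39, adjusted p 0.0385). Deviations from the group means of same-numbered arrays correlated at -0.344 to 0.00955 for RA with CS, -0.294 to -0.0998 for CS with CS_Los, -0.308 to -0.075 for RA_Los with CS_Los and 0.0487, 0.315 and 0.251 for RA with RA_Los, where replicates 2 and 3 matched their own number best and replicate 1 did not. No pair of groups had every correlation above 0.1, so the arrays were treated as unpaired, and the block gave 0 member calls in the other comparisons.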
